A study of Mus musculus with 12 samples.

Results

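The 50 genes described here encode the machinery of DNA replication and S phase, and they were taken by symbol from a list of 50 names. All 50 stand among the 52661 genes of the deposited expression table, and 48 could be followed library by library among 10363 genes tested on exon-exon junction reads. Pcna and Tk1 have no intron event in the splicing table, so for them only the authors' group values were read. The cells were N2A, a mouse neuroblastoma line, treated with an siRNA against Puf60, a U2AF-related RNA-binding protein that helps define 3′ splice sites. All cells carried a doxycycline-inducible, siRNA-resistant Puf60 cDNA with an N-terminal 3xFlag tag at a Flp-In rtTA3 site. The pEx5 cDNA includes exon 5 of Puf60, and the mEx5 cDNA lacks it. In each line 2 libraries (A and B) were made for each of 3 treatments: 15 nM Puf60 siRNA followed after 24 h by 2 µg/ml doxycycline (induced), Puf60 siRNA alone (knockdown), and a non-targeting siRNA (control), all harvested at 48 h. That makes 6 groups and 12 libraries of polyadenylated RNA. Control cells were never given doxycycline, so effects of the drug and of the cDNA cannot be told apart in the induced groups. Libraries of a group are called biological duplicates, with nothing said of separate cultures or transfections, so the p-values measure the spread between these libraries. A description of the induced libraries also calls them uninduced. Their treatment label was used, and their Puf60 level matches it.

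DNA replication starts when the origin recognition complex, Cdc6 and Cdt1 load the MCM helicase on origins in G1. At the G1 to S transition cyclin E and Dbf4-dependent kinases turn the helicase on by joining Cdc45 and the GINS complex to it, after which primase and polymerases alpha, delta and epsilon copy the strands behind it, with the PCNA clamp, its RFC loader and the single-strand binding complex RPA. Many of these genes are transcribed in a cell-cycle dependent way under E2F factors, which the RB family holds back, and their RNA is abundant in proliferating lines such as N2A.

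The libraries held 22908930 to 41494994 junction reads, most in the pEx5 control. Puf60 stood at 618.2 and 631.4 CPM (junction reads scaled to library size) in induced, 58.4 and 64.5 in knockdown and 322 and 296.9 in control libraries of pEx5, and at 622.8 and 577.2 CPM in induced, 75.2 and 71.8 in knockdown and 302.7 and 304.7 in control libraries of mEx5. Of 12 neuroblastoma markers, 9 had at least 1 RPKM in every group, while Th, Nefm and Nefl were below 1. Summed markers of fibroblasts, immune, endothelial and epithelial cells were at 0.35 to 3.83 RPKM in each group, and those of glia at 2.69 to 5.1.

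On knockdown 5 members lost inclusion of an own exon, and 4 of them have such an exon that was matched to the GENCODE M21 annotation (GRCm38) by the length of the exon and of both flanking introns. The 4 exons below are fully coding and are shown because they carry the splicing results, 5′ to 3′ on the sense strand. The Dut exon (chr2:125250973-125251017, + strand, exon 3 of 6, 45 nt), the Mcm4 exon (chr16:15635049-15635144, − strand, exon 6 of 16, 96 nt) and the Pola1 exon (chrX:93596115-93596231, − strand, exon 12 of 37, 117 nt) have lengths divisible by 3. The Pole2 exon (chr12:69204140-69204267, − strand, exon 17 of 19, 128 nt) leaves a remainder of 2. The Pola1 exon shown is 1 of 5 called in that gene. Pola1 exons of 100 and 125 nt, also matched and fully coding, leave remainders of 1 and 2. Those of 130 and 120 nt were not matched and leave 1 and 0. The Mcm4 and Pola1 exons hold 34.4% and 29.1% G or C, against 48.9% in Dut and 52.3% in Pole2.
Dut exon: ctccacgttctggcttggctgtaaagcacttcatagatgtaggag
Mcm4 exon: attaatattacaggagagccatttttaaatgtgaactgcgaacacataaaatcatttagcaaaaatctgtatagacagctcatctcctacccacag
Pola1 exon: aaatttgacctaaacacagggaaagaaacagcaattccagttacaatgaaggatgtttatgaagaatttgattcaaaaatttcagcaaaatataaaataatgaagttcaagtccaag
Pole2 exon: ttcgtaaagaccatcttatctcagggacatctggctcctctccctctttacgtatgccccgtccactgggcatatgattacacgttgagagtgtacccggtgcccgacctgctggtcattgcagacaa

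Promoters of 42 members were in the RefSeq table (GRCm38.p6, 250 bases before to 50 after the start), and were searched on both strands for the E2F core TTTNNCGC, with G or C at both N, and for CCAAT, the site of NF-Y. The E2F core was found in 16 of the 42 (38.1%), against 704 of 27025 genes in the table (2.6%), and CCAAT in 26 (61.9%), against 41.1% of all genes. Printed below are the 150 bases before the start of a member that fell strongly (Mcm6), of one that fell less (Pola1) and of one not called (Orc1), with E2F core matches in capitals. These windows are examples from the members with a match in that span, and the number of matches was not compared with the fall. In the Mcm6 window (chr1:128359706-128359855, − strand) 3 matches begin at -110, -106 and -47 from the start, the first pair overlapping on opposite strands. The Pola1 window (chrX:93632156-93632305, − strand) has a match at -138 and the Orc1 window (chr4:108579304-108579453, + strand) one at -27.
Mcm6 promoter: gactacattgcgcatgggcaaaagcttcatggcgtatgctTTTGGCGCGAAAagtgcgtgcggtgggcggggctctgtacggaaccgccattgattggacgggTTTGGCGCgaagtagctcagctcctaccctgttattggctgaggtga
Pola1 promoter: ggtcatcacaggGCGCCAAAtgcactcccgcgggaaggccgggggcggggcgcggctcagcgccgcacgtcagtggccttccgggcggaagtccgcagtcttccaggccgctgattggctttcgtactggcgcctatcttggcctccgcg
Orc1 promoter: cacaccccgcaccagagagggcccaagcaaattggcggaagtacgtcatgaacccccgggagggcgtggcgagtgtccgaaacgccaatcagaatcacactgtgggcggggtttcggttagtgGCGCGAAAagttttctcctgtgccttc

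The first comparison asked what happened to the replication genes when Puf60 was depleted. On knockdown 36 of the 48 measured members fell and none rose, while across all 10363 genes 25.3% fell, 26.5% rose and 51.8% changed in either direction (limma on log2 CPM of junction reads, mean of both lines, adjusted over all genes by Benjamini-Hochberg, adjusted p under 0.05). Limma-voom also gave 36 lower and 0 higher. Only Pold2 was higher at an unadjusted p under 0.05, and it was called higher when libraries were scaled by total reads or by the upper quartile. The median change was -0.22 on the log2 scale, against 0.01 for all genes, and single members ranged from -0.98 (E2f1) to 0.10 (Pold2). In the pEx5 line 27 members fell (19.5% of all genes did), and in the mEx5 line 33 (18.3%). Both knockdown libraries lay below both control libraries in each line for 35 of 48 members, against 25.9% of all genes. In bulk RNA, fewer cells in S phase and less RNA per cell cannot be told apart.

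**Figure D1:**
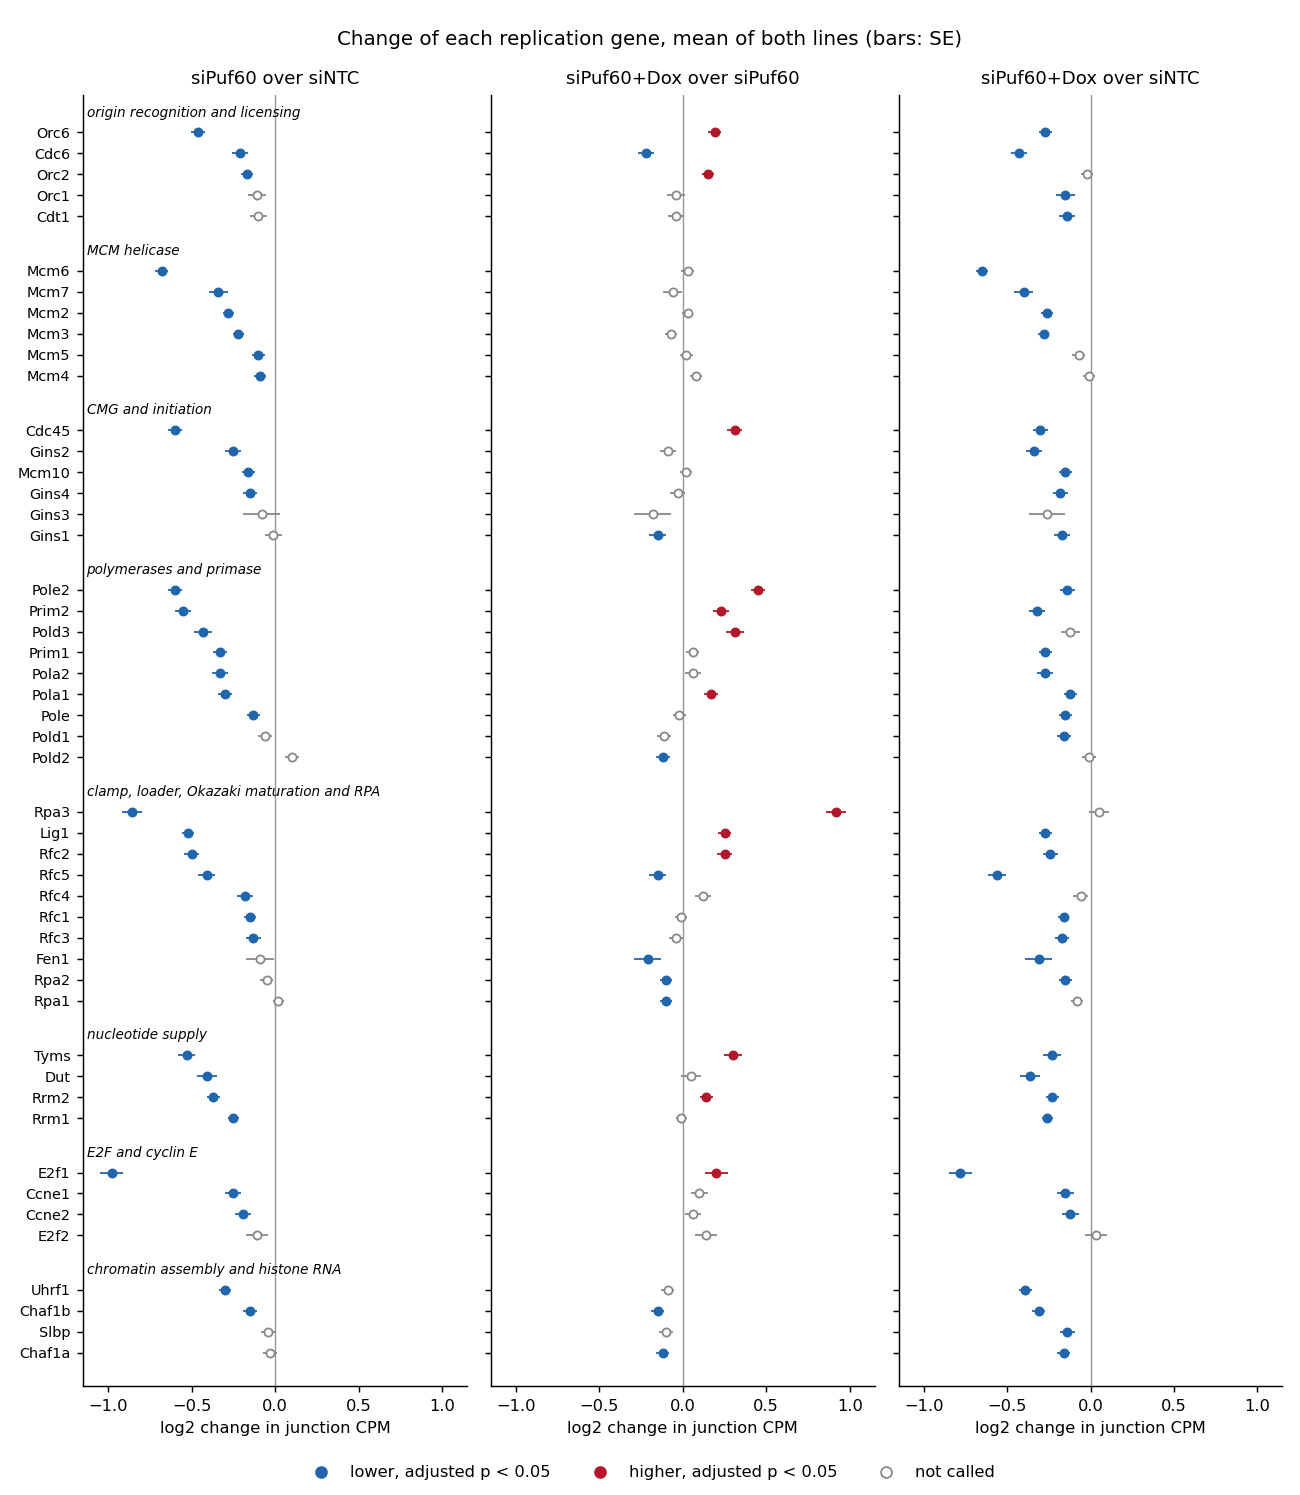
Log2 change in junction CPM (x axis) of the 48 measured members, by role (y axis), for knockdown over control, induced over knockdown and induced over control, as the mean of both lines with SE bars; filled points passed limma at adjusted p under 0.05. On knockdown 36 points are filled on the lower side, the induced over control panel has 38 there, and the induced over knockdown panel has 13 higher and 9 lower.

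Of the genes that mark and load origins, 3 of 5 fell on knockdown. Orc6, a subunit of the origin recognition complex, had 89 and 90 CPM in induced, 84.8 and 82.5 in knockdown and 110.3 and 119.7 in control libraries of pEx5. In mEx5 it had 105.1 and 102.9 CPM in induced, 84.6 and 86.4 in knockdown and 121 and 115 in control libraries. Knockdown and control did not overlap in either line, and the induced libraries lay between them in both (knockdown over control -0.46 ± 0.041 SE, limma adjusted p = 1.77e-08). Cdc6, the ATPase that recruits the helicase loader, took another course: it had 36.1 and 33.5 CPM in induced, 40.8 and 39.9 in knockdown and 45.5 and 47.3 in control libraries of pEx5, and in mEx5 33 and 33.6 in induced, 38.8 and 39 in knockdown and 46 and 45.2 in control libraries. It fell on knockdown (-0.21 ± 0.049, limma adjusted p = 0.00112) and was lower again on induction (-0.22 ± 0.049, limma adjusted p = 0.00164). In the authors' deposited table its log2 fold changes on induction were -0.14 (FDR 0.0722) in pEx5 and -0.07 (FDR 0.465) in mEx5, under 0.05 in neither line. Cdt1, the partner of Cdc6 in loading, showed -0.10 ± 0.049 on knockdown and was not called. It had 186.6 and 185.7 CPM in induced, 186.4 and 191.5 in knockdown and 214 and 180.1 in control libraries of pEx5, and 178.5 and 183.8 CPM in induced, 193 and 183.4 in knockdown and 220.8 and 197.1 in control libraries of mEx5, with knockdown and control overlapping in pEx5 and apart in mEx5. Orc2 fell by 0.17, and Orc1 was not called.

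All 6 subunits of the MCM helicase fell on knockdown, and on induction limma called 0 of them, with 1 at an unadjusted p under 0.05. The calls of Mcm4 (-0.09) and Mcm5 (-0.10) were the weakest: neither passed with total-read or upper-quartile scaling, and they were lost without any 1 of 7 and of 8 of the 12 libraries. Mcm6 fell most of the 6. It had 216.7 and 218 CPM in induced, 224.3 and 223.3 in knockdown and 359.1 and 370.5 in control libraries of pEx5, and 258.4 and 234.4 in induced, 237 and 224.6 in knockdown and 371.6 and 354.5 in control libraries of mEx5. All 8 siPuf60 libraries, with or without doxycycline, stood far below all 4 controls (knockdown -0.68 ± 0.038, limma adjusted p = 2.76e-11; induced over control -0.65 ± 0.038, limma adjusted p = 1.38e-10). All 16 of its junctions fell in both lines, by a log2 change of -0.77 to -0.59 each. Mcm7 had 140.9 and 133.8 CPM in induced, 132.1 and 144.7 in knockdown and 167.9 and 190.9 in control libraries of pEx5, and 124.4 and 111.3 CPM in induced, 138.2 and 117.6 in knockdown and 149.6 and 165.8 in control libraries of mEx5, with knockdown below control in both lines (-0.34 ± 0.057, limma adjusted p = 5.99e-05). Mcm4, the least changed, had 260.6 and 279.8 CPM in induced, 269.8 and 260.7 in knockdown and 274.6 and 277.3 in control libraries of pEx5, and 283.4 and 293.6 CPM in induced, 255.8 and 269.6 in knockdown and 286 and 288.3 in control libraries of mEx5, with knockdown below control and induced libraries overlapping control in both lines. Mcm2 and Mcm3 changed by -0.28 and -0.22. Against control, Mcm2, Mcm3, Mcm6 and Mcm7 were still lower after induction.

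Of the genes of helicase activation 4 of 6 fell. Cdc45, the subunit that completes the active CMG helicase, had 98.8 and 106.4 CPM in induced, 86.6 and 90.5 in knockdown and 129.6 and 132.3 in control libraries of pEx5. In mEx5 it had 113.8 and 103.2 CPM in induced, 82 and 82.4 in knockdown and 129.8 and 126.8 in control libraries. In both lines the induced libraries stood between the other treatments with no overlap (knockdown -0.60 ± 0.043, limma adjusted p = 6.92e-10; induced over knockdown 0.31 ± 0.043, limma adjusted p = 1.5e-05). Among the GINS subunits, which bridge the helicase and polymerase epsilon, Gins2 had 143.7 and 131.8 CPM in induced, 140.5 and 142.8 in knockdown and 171.3 and 164.2 in control libraries of pEx5, and 144.4 and 123.6 CPM in induced, 142.3 and 153.7 in knockdown and 174.6 and 178 in control libraries of mEx5, with knockdown and induced libraries below control in both lines (knockdown -0.25 ± 0.048, limma adjusted p = 0.000225). Gins1 did not change on knockdown past the threshold (-0.01 ± 0.05). It had 36.1 and 37.5 CPM in induced, 46.6 and 44.7 in knockdown and 43.3 and 45.9 in control libraries of pEx5, and 43.6 and 46.7 CPM in induced, 44.2 and 46 in knockdown and 47.9 and 46 in control libraries of mEx5, so that only the induced pEx5 libraries stood apart. The mean induction change of both lines was called lower (-0.15 ± 0.05, limma adjusted p = 0.0193).

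Of the polymerase and primase genes 7 of 9 fell, and 4 of these rose on induction. Pole2, the second subunit of polymerase epsilon, had 72.8 and 76.4 CPM in induced, 57.1 and 61.1 in knockdown and 89.6 and 88.2 in control libraries of pEx5. In mEx5 its levels were 100 and 95.9 CPM in induced, 63.9 and 67.7 in knockdown and 102.2 and 97.5 in control libraries, so that induced and control libraries overlapped in mEx5 and not in pEx5. It changed by -0.60 ± 0.044 on knockdown (limma adjusted p = 1.1e-09) and by 0.45 ± 0.044 on induction (limma adjusted p = 1.2e-07), and the induction change was not called different between the lines (-0.24 ± 0.088, limma adjusted p = 0.244). Prim2, the large primase subunit, fell by 0.55 and rose by 0.23, with 65.3 and 59.7 CPM in induced, 57.2 and 52.1 in knockdown and 74.6 and 81 in control libraries of pEx5, and 76 and 77.3 CPM in induced, 64.6 and 62.6 in knockdown and 94.1 and 96.5 in control libraries of mEx5. Pola1, the catalytic subunit of polymerase alpha, had 156 and 152.3 CPM in induced, 146.3 and 140.8 in knockdown and 170.8 and 191.6 in control libraries of pEx5, and 191.1 and 202.7 in induced, 166.7 and 166.5 in knockdown and 195.7 and 203.1 in control libraries of mEx5 (knockdown -0.30 ± 0.041, limma adjusted p = 6.11e-06). Pold2, an accessory subunit of polymerase delta, was the highest member of the group, at 0.10 ± 0.043 (limma adjusted p = 0.0532). It had 162.2 and 165.2 CPM in induced, 165.6 and 174.7 in knockdown and 165.3 and 149.1 in control libraries of pEx5, and 147 and 143.1 CPM in induced, 155.7 and 172.5 in knockdown and 152.6 and 155.2 in control libraries of mEx5, with both knockdown libraries above both controls in each line.

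Among the clamp loader, Okazaki fragment and RPA genes 7 of 10 fell. Rpa3, the smallest subunit of the single-strand binding complex, had 106 and 117.6 CPM in induced, 62.3 and 57.2 in knockdown and 107.8 and 117 in control libraries of pEx5. In mEx5 it had 107.2 and 132.1 CPM in induced, 59.3 and 65.4 in knockdown and 111.1 and 108.3 in control libraries. Induced and control libraries overlapped in both lines, far above knockdown (knockdown -0.86 ± 0.06, limma adjusted p = 4.54e-10; induced over knockdown 0.92 ± 0.06, limma adjusted p = 6.42e-10; induced over control 0.05 ± 0.06, limma adjusted p = 0.506). These Rpa3 values rest on 1 junction; the authors' deposited table gave knockdown log2 fold changes of -0.62 in pEx5 and -0.61 in mEx5, and induction ones of 0.56 and 0.65. Rpa1 and Rpa2, the other two subunits, showed 0.02 and -0.05 on knockdown and were not called. Rpa1 had 319 and 315.2 CPM in induced, 345 and 341.1 in knockdown and 322.2 and 330.6 in control libraries of pEx5, and 289.6 and 272.5 CPM in induced, 291 and 307.1 in knockdown and 306.8 and 307.2 in control libraries of mEx5, with knockdown above control in pEx5 and overlapping it in mEx5. Lig1, the ligase that joins Okazaki fragments, had 316.1 and 330.9 CPM in induced, 282.6 and 289.1 in knockdown and 396.3 and 392 in control libraries of pEx5, and 327.4 and 295.8 CPM in induced, 247.7 and 248.6 in knockdown and 370.4 and 371 in control libraries of mEx5, each treatment apart from the others. Its changes were -0.52 ± 0.037 on knockdown (limma adjusted p = 6.96e-10) and 0.25 ± 0.037 on induction (limma adjusted p = 2.53e-05). Rfc5, a subunit of the clamp loader, fell on knockdown (-0.41) and again on induction (-0.15 ± 0.052, limma adjusted p = 0.0331). For it the authors' deposited table gave induction log2 fold changes of -0.18 (FDR 0.00647) in pEx5 and -0.12 (FDR 0.0913) in mEx5. For Pcna, the clamp itself, the authors' deposited table gave 222.4 RPKM in induced, 236.82 in knockdown and 254.8 in control groups of pEx5, and 244.07 in induced, 242.9 in knockdown and 290.46 in control groups of mEx5. Their log2 fold changes on knockdown were -0.07 (FDR 0.461) in pEx5 and -0.22 (FDR 0.00308) in mEx5.

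All 4 measured genes of nucleotide supply fell. Tyms, which makes thymidylate, had 40.4 and 44.7 CPM in induced, 37.1 and 35.4 in knockdown and 51.3 and 51.4 in control libraries of pEx5, and 53.7 and 47.7 in induced, 38.4 and 40.1 in knockdown and 57.7 and 57.7 in control libraries of mEx5. The treatments did not overlap in either line (knockdown -0.53 ± 0.053, limma adjusted p = 8.02e-08; induced over knockdown 0.30 ± 0.053, limma adjusted p = 0.000187). With reads of exon events in place of junction reads the direction turned, to 1.18 on knockdown and -1.05 on induction. Only 1 Tyms exon event could be tested, on 37 to 165 reads a library. Its inclusion reads were 54 in knockdown and 48 in control of pEx5, and 43 and 52 in mEx5. Its exclusion reads were 247 and 65 in pEx5, and 173 and 60 in mEx5. The authors' deposited table gave Tyms log2 fold changes on knockdown of -0.5 in pEx5 and -0.56 in mEx5. Dut, which removes dUTP, had 100.5 and 102.1 CPM in induced, 97.9 and 103.9 in knockdown and 133.2 and 133.5 in control libraries of pEx5, where induced and knockdown overlapped. In mEx5 it had 129.8 and 119.6 CPM in induced, 130.2 and 104.6 in knockdown and 168.4 and 143 in control libraries (knockdown -0.41 ± 0.06, limma adjusted p = 1.23e-05; induced over knockdown 0.05 ± 0.06, limma adjusted p = 0.543). The ribonucleotide reductase subunits Rrm1 and Rrm2 changed by -0.25 and -0.37. Rrm1, the large subunit, had 684.1 and 716.7 CPM in induced, 735.8 and 728.6 in knockdown and 838.8 and 882.8 in control libraries of pEx5, and 716.6 and 705.8 CPM in induced, 680.6 and 694.8 in knockdown and 821.1 and 827.6 in control libraries of mEx5, with all siPuf60 libraries below the controls of their line. In the authors' deposited table Tk1, the thymidine salvage kinase, stood at 61.11 RPKM in induced, 57.88 in knockdown and 72.26 in control groups of pEx5, and at 46.95 in induced, 48.56 in knockdown and 74.64 in control groups of mEx5, with log2 fold changes on knockdown of -0.29 in pEx5 and -0.58 in mEx5.

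E2f1, a transcription factor that drives entry into S phase, fell most of all members. It had 28.1 and 32.9 CPM in induced, 25.8 and 26.3 in knockdown and 49.1 and 50.8 in control libraries of pEx5. In mEx5 it had 34.6 and 30.6 CPM in induced, 26.1 and 31.4 in knockdown and 60.5 and 55.8 in control libraries. Controls lay apart from all siPuf60 libraries, and induced and knockdown libraries overlapped in mEx5 (knockdown -0.98 ± 0.068, limma adjusted p = 4.45e-10; induced over control -0.78 ± 0.068, limma adjusted p = 4.29e-08). Its rise on induction (0.20 ± 0.068, limma adjusted p = 0.0231) was lost without any 1 of 4 libraries and was called in neither line alone. The cyclins E that act with Cdk2 fell less, Ccne1 by 0.25 and Ccne2 by 0.19. Ccne1 had 62.9 and 67.3 CPM in induced, 65.8 and 59.4 in knockdown and 74.9 and 74.3 in control libraries of pEx5, and 57.1 and 61.2 CPM in induced, 52.8 and 54.7 in knockdown and 63.5 and 63.4 in control libraries of mEx5, with all siPuf60 libraries below the controls of their line. E2f2, a close relative of E2f1, was not called (-0.11 ± 0.066). It had 27.3 and 27.2 CPM in induced, 23.9 and 23.2 in knockdown and 27 and 23.1 in control libraries of pEx5, and 19 and 17.8 CPM in induced, 17.4 and 17.9 in knockdown and 20.3 and 18.4 in control libraries of mEx5, with knockdown and control overlapping in pEx5 and apart in mEx5.

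Of 4 genes of chromatin assembly and histone RNA, Uhrf1 and Chaf1b fell. Uhrf1, which brings maintenance methylation to new DNA, had 256.4 and 232.5 CPM in induced, 247.6 and 241.8 in knockdown and 294.1 and 299.8 in control libraries of pEx5, and 200.9 and 195.8 in induced, 220.5 and 225.7 in knockdown and 272.8 and 287.4 in control libraries of mEx5 (knockdown -0.30 ± 0.038, limma adjusted p = 1.75e-06). Chaf1b, a subunit of the chromatin assembly factor CAF-1, had 122.4 and 116.4 CPM in induced, 128.2 and 133.3 in knockdown and 139.4 and 144.9 in control libraries of pEx5, and 117.5 and 108.8 CPM in induced, 125.7 and 130.4 in knockdown and 143.8 and 148.3 in control libraries of mEx5, each treatment apart from the others. It changed by -0.15 ± 0.04 on knockdown and by -0.15 ± 0.04 again on induction (limma adjusted p = 0.00326 and 0.0051). Chaf1a, the large CAF-1 subunit, was not called on knockdown (-0.03 ± 0.04). It had 117 and 120.6 CPM in induced, 128.7 and 130.5 in knockdown and 138.4 and 128.6 in control libraries of pEx5, and 117 and 110.2 CPM in induced, 121.3 and 125.8 in knockdown and 127.8 and 124.1 in control libraries of mEx5, with knockdown and control overlapping in both lines and induced libraries lowest.

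**Figure D2:**
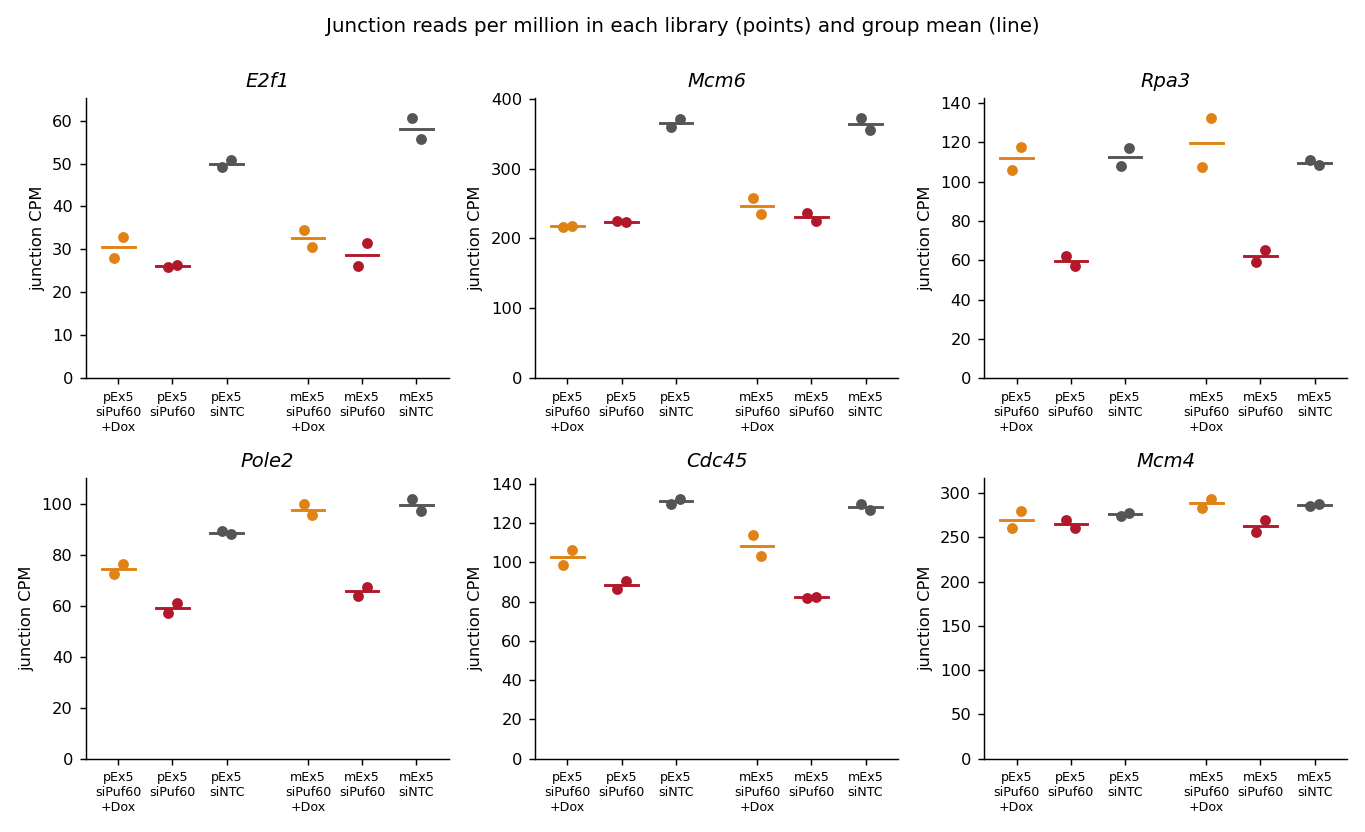
Junction CPM (y axis, from 0) of 6 members in each of the 12 libraries (points) with group means (lines), by line and treatment (x axis). Rpa3 returns to its control level in induced libraries of both lines and Pole2 in mEx5, Cdc45 stands between knockdown and control, E2f1 and Mcm6 stay near their knockdown level, and Mcm4 differs little between treatments.

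The next comparison asked whether the fall was undone when Puf60 was supplied again. Induction over knockdown and knockdown over control share the knockdown libraries, so their values are given side by side. On induction 13 of 48 members rose (19% of all genes did) and 9 fell (18.7%), with a median change of 0.02. The 13 were Rpa3 (0.92), Pole2 (0.45), Pold3 (0.31), Cdc45 (0.31), Tyms (0.30), Rfc2 (0.25), Lig1 (0.25), Prim2 (0.23), E2f1 (0.20), Orc6 (0.19), Pola1 (0.17), Orc2 (0.15) and Rrm2 (0.14), each of which had fallen on knockdown. The 9 that fell were Cdc6, Fen1, Gins1, Rfc5, Chaf1b, Chaf1a, Pold2, Rpa1 and Rpa2, by log2 changes between -0.22 and -0.10. That count was 4 without pEx5 knockdown library A or either pEx5 induced library, and 3 without pEx5 knockdown B, mEx5 knockdown B or mEx5 induced B. The calls of Pold2 and Rpa1 were each lost without any 1 of 6 or more libraries. In pEx5 alone 7 members rose (12.7% of all genes) and 2 fell (9.27%), and the 7 became 4, 2 and 3 without pEx5 knockdown A, pEx5 knockdown B and pEx5 induced B. In mEx5 alone 12 rose (13.3%) and 5 fell (12.5%).

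Of the 36 members that fell on knockdown, 13 (36.1%) rose on induction, 20 were not called and 3 fell again, while of the 2617 genes that fell across all measured genes, 1395 (53.3%) rose. Against control, 38 members were lower after induction (19.4% of all genes) and none was higher, by limma and by limma-voom alike and at an unadjusted p under 0.05, with a median of -0.18. Of the 36 that fell on knockdown, 30 (83.3%) were still lower than control, against 1328 of 2617 genes (50.7%). The other 6 were Orc2, Pold3 and Rpa3, which had risen on induction, and Mcm4, Mcm5 and Rfc4, which were not called on induction. The remaining 8 of the 38 (Orc1, Cdt1, Gins1, Pold1, Fen1, Rpa2, Slbp and Chaf1a) had not been called on knockdown. By line, 31 members were lower than control after induction in pEx5 (14.1% of all genes were lower and 29.2% changed in either direction) and 24 in mEx5 (11.1% and 21.4%).

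Values from different lines share no library. Of the 27 members that fell on knockdown in pEx5, 11 (40.7%) rose and 2 fell on induction in mEx5, with a median change of 0.14 over knockdown and of -0.25 over control there. The 2022 genes that fell in pEx5 rose in 47.9% of cases in mEx5, with medians of 0.20 and -0.11. Of the 33 members that fell in mEx5, 7 (21.2%) rose and 1 fell on induction in pEx5, with medians of 0.04 over knockdown and -0.27 over control, against 41.8%, 0.17 and -0.18 for the 1895 genes that fell in mEx5. In both directions a smaller share of members than of all fallen genes rose; that difference was not tested.

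**Figure D3:**
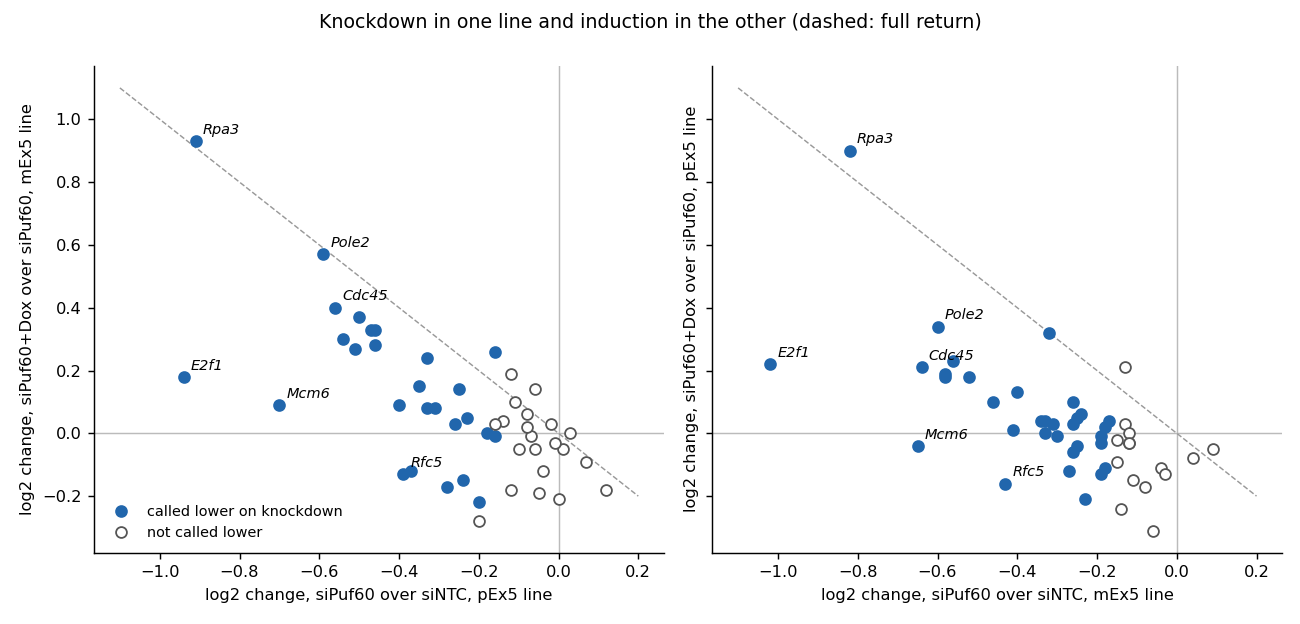
Log2 change on knockdown in one line (x axis) against log2 change on induction in the other (y axis) for the 48 members; filled points fell on knockdown and the dashed line marks a full return. Rpa3 lies on or near the line in both panels, while E2f1 and Mcm6 lie far below it.

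The authors' deposited table, read at their FDR under 0.05, gave 33 of 50 members lower and 0 higher on knockdown in pEx5 (17.5% of 18600 genes were lower) and 40 lower and 0 higher in mEx5 (16.8%). On induction it gave 7 higher (10.7%) and 4 lower (8.64%) in pEx5, and 12 higher (10.7%) and 2 lower (9.26%) in mEx5. Its RPKM, a level per length, ran in pEx5 controls from 9.33 for Gins3 to 276.22 for Rpa3. For Mcm4 its group RPKM had the opposite order to its fold changes: 59.8 in knockdown against 53.3 in control of pEx5 and 56.99 against 54.17 in mEx5, with log2 fold changes of -0.07 and -0.16.

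The third comparison asked whether the genes that fell were those with own skipped exons. Inclusion is given as PSI, the percent of reads that include the exon. Of 1350 splicing events of members that could be tested, 12 events in 5 genes changed on knockdown (limma on the logit of inclusion reads, mean of both lines, adjusted p under 0.05 and at least 10 PSI points), 10 of them lower and 2 higher, against 0.911% lower and 0.301% higher of 222055 events overall. Exons with lower inclusion made up 9 of the 12, of 552 member exons tested, against 1.86% of all exons. Events of one gene can share reads, so these counts are not of independent changes. A test with precision weights called 9 of 68 member events lower and 2 higher, in the same 5 genes, while 12.3% of its 22767 events were lower and 17.5% changed in either direction. The authors' deposited table, whose rule is not given, marks all 12 events True on knockdown in both lines, and more besides. In pEx5 it marks 36 member events in 18 genes (2.74% of those rated, against 3.63% of all events), and in mEx5 34 events in 17 genes (2.58% against 3.03%). Besides the same 5 genes it marks Ccne1, Cdc45, Orc6, Prim1, Rfc5, Rpa1 and Slbp in both lines. In these limma called no event on knockdown in the mean of both lines. Of these added genes, Rpa1 (0.02) and Slbp (-0.04) were not called lower in junction reads on knockdown, and the others were. On simulated data the unweighted test missed most changes at its threshold and well above it, and in pEx5 alone it found none. Other events of members may thus have changed without being called.

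The 96-nt Mcm4 exon shown above changed most among the well-covered exons. Its PSI was 89.79 and 90.72 in induced, 72.99 and 72.69 in knockdown and 98.56 and 98.45 in control libraries of pEx5, and 98.91 and 96.35 in induced, 77.61 and 74.02 in knockdown and 98.85 and 98.13 in control libraries of mEx5, on 1168 to 1858 reads each. Knockdown lay far below control in both lines, and induced libraries reached control in mEx5 but not in pEx5 (knockdown -24.2 points, limma adjusted p = 0.00098; induction 19.6 points, limma adjusted p = 0.0135). The 45-nt Dut exon had a PSI of 91.33 and 90.99 in induced, 83.16 and 82.87 in knockdown and 98.46 and 98.52 in control libraries of pEx5, and 98.39 and 98.58 in induced, 88.07 and 86.14 in knockdown and 98.89 and 99.24 in control libraries of mEx5, on 1696 to 3727 reads each (knockdown -13.7 points, limma adjusted p = 0.000194). The 128-nt Pole2 exon had 75.95 and 77.39 in induced, 74.47 and 65.5 in knockdown and 91.88 and 88.21 in control libraries of pEx5, and 92.8 and 90.55 in induced, 67.57 and 71.56 in knockdown and 90.71 and 94.46 in control libraries of mEx5 (knockdown -21.5 points, limma adjusted p = 0.00507). For Mcm4, Dut and Pole2 the induced libraries of pEx5 all lay below those of mEx5, and the authors' deposited table marks each exon True between the induced lines. The difference between lines in the response to induction did not pass the unweighted limma test for any of them (adjusted p = 0.735, 0.26 and 0.652); with precision weights Dut had an adjusted p of 0.00287 in limma at a difference of -3.2 points, under the 10-point threshold.

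Pole2 also used an alternative 3′ splice site more (the 65-nt variant, 15.4 points higher) and another less (the 32-nt variant, -14.7 points). Both variants were scored on the same read total, 384 in pEx5 knockdown, so their changes are not independent. The gene also kept a 715-nt intron more often (11.2 points higher). That intron was retained at 11 and 17.53% in induced, 18.05 and 14.89% in knockdown and 5.23 and 5.99% in control libraries of pEx5, and at 16.02 and 15.13% in induced, 19.25 and 19.75% in knockdown and 7.14 and 8.82% in control libraries of mEx5. In Pola1 5 exons of 100 to 130 nt lost 10.3 to 11.2 points. Those of 130, 120, 100 and 125 nt had similar exclusion reads: 53, 53, 45 and 54 in pEx5 knockdown and 81, 82, 65 and 87 in mEx5 knockdown. The same skipping reads may thus be counted for several exons, which was not tested. The printed 117-nt exon had a PSI of 97.1 and 97.48 in induced, 88.16 and 86.75 in knockdown and 97.16 and 98.51 in control libraries of pEx5, and 94.95 and 97.3 in induced, 87.22 and 87.43 in knockdown and 98.07 and 97.12 in control libraries of mEx5, so that induced and control libraries overlapped in both lines. Its own call was lost (-10.0 points) without pEx5 control B or pEx5 knockdown B. The other 4 Pola1 exons lie close to the 10-point threshold, and without mEx5 knockdown library A their changes were -9.5 to -9.7 points and 7 member events and 4 exons were called. The 83-nt Tyms exon had 46.61 and 31.1 in induced, 21.99 and 12.72 in knockdown and 48.21 and 36.26 in control libraries of pEx5, and 36.06 and 23.26 in induced, 19.05 and 21.48 in knockdown and 40.17 and 51.58 in control libraries of mEx5. Its change of -25.2 points (limma adjusted p = 0.0357) rests on 37 to 165 reads a library and was lost when any 1 of 7 libraries was left out. On induction the Mcm4 exon and the 130-nt Pola1 exon (10.4 points, limma adjusted p = 0.0438) were called higher, against 0.793% of all exons. The call of that Pola1 exon was lost when any 1 of 9 libraries was left out, and that of the Mcm4 exon without mEx5 knockdown library B (18.7 points). Other exons lower on knockdown rose by just under 10 points: Dut by 9.8 (limma adjusted p = 0.00373). The 117-nt and 100-nt Pola1 exons rose by 9.3 and 8.9 points (limma adjusted p = 0.0187 and 0.0246). No member event was called against control after induction, where 0.0144% of all events were lower, and the weighted test called 0 of 68. An unadjusted limma p under 0.05 was seen in 362 of 1350 member events and in 32996 of 222055 events overall. Some events differed from control by under 10 points: the Dut exon by -4.0 (limma adjusted p = 0.0394), the Mcm4 exon by -4.6 (weighted limma adjusted p = 0.00219). For the 715-nt Pole2 intron it was 8.1 points (weighted limma adjusted p = 0.0084). The return of splicing to control is thus not shown to be full.

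**Figure D4:**
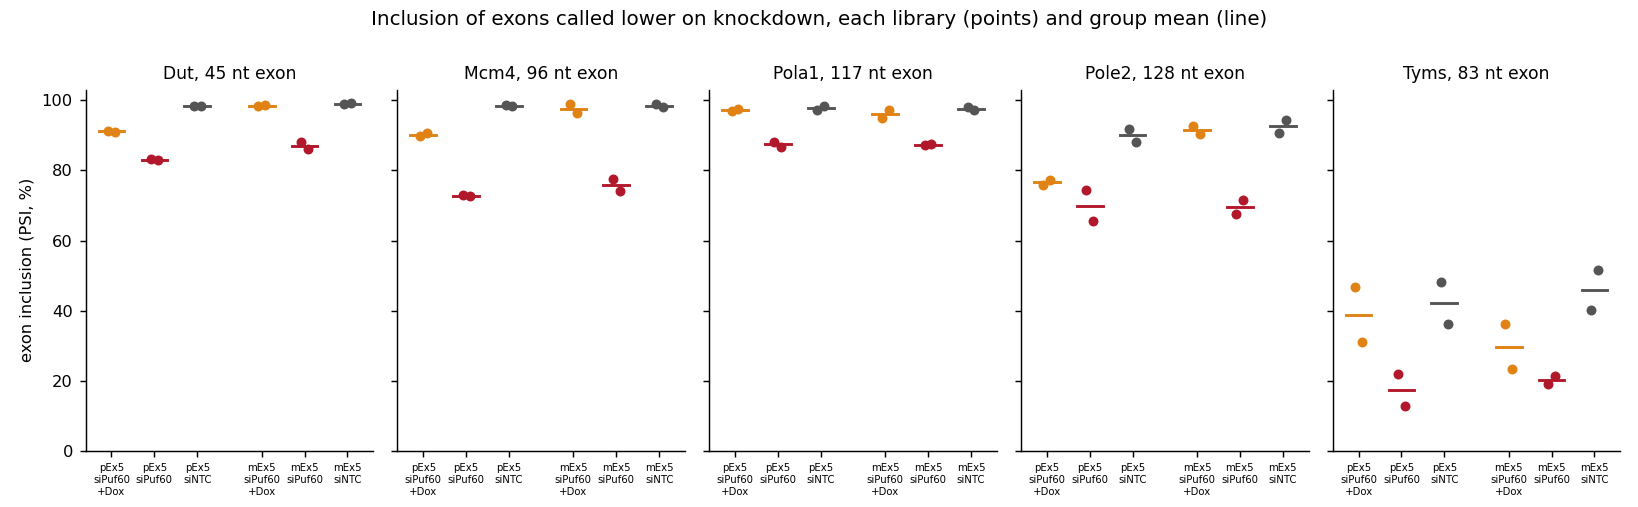
PSI in percent (y axis, from 0) of an exon of 5 members in each of the 12 libraries (points) with group means (lines), by line and treatment (x axis). Every knockdown library lies below every control library of its line, and the induced libraries of Dut, Mcm4 and Pole2 stand lower in pEx5 (means of 91.2, 90.3 and 76.7) than in mEx5 (98.5, 97.6 and 91.7).

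The 5 members with an exon called lower (Dut, Mcm4, Pola1, Pole2 and Tyms) all fell, with a median change of -0.41. Of the 43 others, 31 (72.1%) fell, with a median of -0.19. Across all genes 44.8% of the 1209 with such an exon fell and 22.7% of the 9154 without. These shares use all junctions, including those that lose reads by skipping, and were not read again without them. The sets without such an exon also hold genes in which no exon could be tested. The deepest falls were those of E2f1, Rpa3 and Mcm6. None of these had an event called by limma for the mean of both lines on knockdown, with or without precision weights. Of the 6 junctions of E2f1, 5 lie away from events called in any comparison, single lines and induction included. The authors' deposited table marks an E2f1 event True on knockdown in mEx5. In E2f1 and Mcm6 the most reduced exons changed by -0.2 and -0.4 points, and an E2f1 intron of 1476 nt gained 7.0 points (limma adjusted p = 0.016), under the 10-point threshold. In Rpa3 no exon could be tested, and the largest change among its 3 tested events was -0.6 points. An Orc6 exon changed by -8.7 points (limma adjusted p = 0.00248), also under 10 points, and the lowest Cdc45 exon changed by -5.1 points and passed neither threshold (limma adjusted p = 0.114). Among the 5, Mcm4 fell by 0.09 with an exon changed by -24.2 points, and Pola1 fell by 0.30 with -11.2 points at most.

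Skipping takes junction reads from the skipped exon, so the falls were read again from junctions away from called events. The change was then -0.06 for Mcm4 (limma adjusted p = 0.178, no longer called), -0.33 for Dut, -0.55 for Pole2 and -0.27 for Pola1, each of the last 3 still lower (limma adjusted p = 8.3e-05, 6.31e-09 and 4.79e-05). Neither of the 2 Tyms junctions lies at the called exon, so none was removed, and its change was -0.54 ± 0.053 (limma adjusted p = 5.7e-08).

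**Figure D5:**
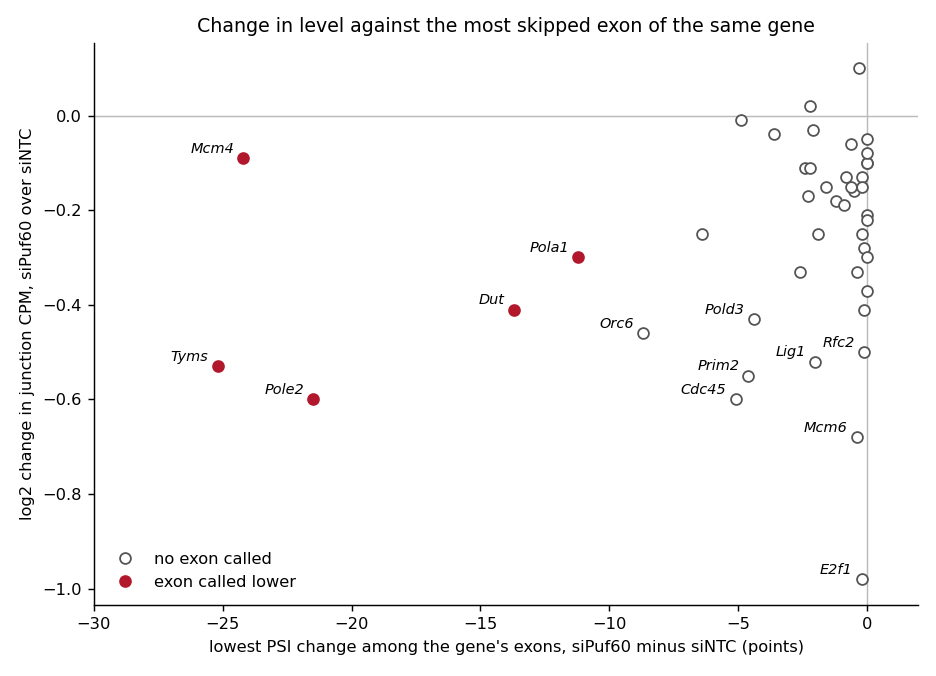
Log2 change in junction CPM on knockdown (y axis) against the lowest PSI change among the exons of the same member (x axis, points), both as siPuf60 against siNTC and as the mean of both lines; red points have an exon called lower. E2f1 and Mcm6 are the lowest points, with no exon below -0.4 points, and Mcm4 fell by 0.09 beside a change of -24.2 points.

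Members were also split by the E2F core in their promoter. Of 16 with the motif 11 fell (68.8%, median -0.22), and of 24 without it 18 (75%, median -0.25). Across all genes 32.4% of 373 with the motif fell and 25.4% of 7067 without. E2f1, Rpa3 and Tyms have no match in the searched window. For E2f1 the gene in GENCODE M21 begins upstream of that window (chr2:154569892, − strand), so the bases before that start were not searched.

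The lines were last compared with each other. No difference between pEx5 and mEx5 in the knockdown change was called (0 members called and 0 at an unadjusted p under 0.05 in limma, 0.0289% of all genes called), with differences from -0.24 (Gins3) to 0.16 (Mcm5) and a median SE of 0.088. For the induction change 0 members were called (0.28% of all genes were lower, 0.473% higher and 0.753% called in either direction), with a range from -0.31 (Gins1) to 0.22 (Pold1). At an unadjusted limma p under 0.05 there were 7 of 48 members, beside 1256 of 10363 genes. Against control, 1 member differed, where 2.73% of all genes were higher in pEx5, 1.52% lower and 4.26% called in either direction. Pold1, the catalytic subunit of polymerase delta, named after its values were seen, had 195.2 and 194.8 CPM in induced, 192.7 and 196.6 in knockdown and 205.8 and 183.5 in control libraries of pEx5, and 155.3 and 156.9 in induced, 172 and 190.8 in knockdown and 196.8 and 196.5 in control libraries of mEx5. Induced libraries of mEx5 were the lowest, below both other treatments, while in pEx5 the treatments overlapped (difference of the changes over control 0.34 ± 0.085, limma adjusted p = 0.0333).

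Among splicing events, the precision-weighted test called 1 member event whose response to induction differed between the lines (0.272% of 22767 events were called), the 138-nt exon of Cdc45. Its PSI was 81.93 and 75.94 in induced, 86.17 and 86.53 in knockdown and 89.04 and 91.45 in control libraries of pEx5, and 92.17 and 91.63 in induced, 87.32 and 83.83 in knockdown and 91.22 and 92.57 in control libraries of mEx5. Induced libraries were thus the lowest in pEx5 and stood among the controls in mEx5 (difference -13.7 points, weighted limma adjusted p = 0.037; the unweighted test gave an adjusted p of 0.506).

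Other genes of the same pathways were counted by the same limma calls, to be read against the 25.3% of all genes that fell and the 26.5% that rose on knockdown, and the 19% that rose and 18.7% that fell on induction. Of 22 measured accessory genes of origins and forks 16 fell and 3 rose, with a median of -0.24: Dscc1, of an alternative clamp loader, at -1.27 and Mcm8 at -0.62, against Mtbp at 0.39 and Recql4 at 0.32. On induction 11 of the 22 rose, among them Dscc1 (0.86) and Mcm8 (0.52), and 2 fell. Of 16 checkpoint and repair genes 10 fell and 1 rose, with Fanci at -0.89 and Atr, the kinase of the replication checkpoint, at -0.86, and 8 rose on induction (Atr 0.67, Fanci 0.50). Of 9 genes of chromatin in S phase 7 fell, led by the remodeller Hells at -0.97, which alone of the 9 rose on induction (0.68). Of 14 further nucleotide genes 7 fell and 1 rose (Rrm2b, a ribonucleotide reductase subunit, 0.22).

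Of 15 RB and E2F regulators 4 fell, a share near the 25.3% of all genes, and 2 rose, with a median of -0.03: E2f5 (-0.53) and Tfdp1, the partner that E2F factors need to bind DNA (-0.47), were lowest, and E2f7, a repressor of E2F targets, rose by 0.27. On induction Tfdp1 rose by 0.52, and its change over control was 0.05 (limma adjusted p = 0.414). Of 13 G1/S cyclins, kinases and inhibitors 5 fell and 2 rose, the 2 being the cyclin kinase inhibitor Cdkn1a (0.46 ± 0.059, limma adjusted p = 1.77e-06) and Myc (0.22). On induction Cdkn1a was not called (0.03): it averaged 43.8 CPM in induced, 42.6 in knockdown and 31.7 in control libraries of pEx5, and 39.1 in induced, 38.7 in knockdown and 27.3 in control libraries of mEx5. Of 12 p53 targets, which include Cdkn1a, 0 fell and 4 rose, beside 26.5% of all genes. Of 15 G2/M genes 6 fell and 1 rose (Top2a -0.35, Bub1 -0.32, Cenpe 0.12), and on induction 8 fell and 3 rose.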

How the data were processed

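Polyadenylated RNA of 12 libraries (6 groups of 2) was sequenced with a stranded protocol, per the labels' protocols. The authors deposited RPKM values per gene and group, log2 fold changes with p-values and FDR, made with Salmon 0.14.1 and edgeR on mm10 per the submitters' processing notes, with no value per library. They also deposited splicing events with inclusion in percent (PSI) and reads per library, group PSI values (treated here as a score, since some pass 100) and True or False calls. The splicing program's version, assembly and the rule of the calls are not given in the sources used here, and event coordinates differ from mm10, so none is printed.

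Reads over exon-exon junctions were summed per gene from the intron events, scaled by median ratios and tested as log2 CPM (prior count 2, mean of at least 20 reads, 10363 genes) with limma 3.58.1 in R 4.3.3 and Benjamini-Hochberg adjustment at 0.05. Events with at least 10 reads in every library (222055) were tested with limma on the logit of inclusion reads (0.5 reads added), called at adjusted p under 0.05 and 10 points. Both steps were tested on simulated data. Alternatives were other scalings, filters, pseudocounts, weights, thresholds and leaving out each library. Junction reads, 22908930 to 41494994 a library, carry no molecular identifiers. Values in every library are given for the 2 lowest and the 1 highest member of each role group by mean knockdown change, for members with a called event, with a called difference between lines, or called higher on knockdown, and other pathway genes are the 2 with the largest change in each direction of a list. The members, the pathway lists and these choices were made with earlier results of these data known. A pathway gene that this rule names is not reported here.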

Additional observations from a re-analysis of the deposited data

Results flagged for a closer look

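For Pold1 the change over control after induction differed between the lines by 0.34 ± 0.085 on the log2 scale (pEx5 minus mEx5, limma adjusted p = 0.0333): it was 0.01 in pEx5 and -0.33 in mEx5, with both induced mEx5 libraries lowest of the 6 of that line. The authors' deposited table gave a log2 fold change of 0.32 between the induced lines (FDR 2.52e-05).

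The 138-nt exon of Cdc45 responded differently to induction in the lines, by -13.7 points (pEx5 minus mEx5, precision-weighted limma adjusted p = 0.037), with a change of -7.4 points in pEx5 and 6.3 in mEx5. Every induced library lay below both knockdown libraries in pEx5 and above both in mEx5, on 898 to 2171 reads a library, and the unweighted test did not call the difference.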

How the results depend on the processing

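The count of members lower on knockdown (36) ranged from 33 to 37 when single libraries were left out, and that of members lower than control after induction (38) from 33 to 38. With total junction reads or the upper quartile as scaling, 33 members were lower and 1 (Pold2) was higher on knockdown, and with reads of exon events only 1 was higher. Leaving out single libraries gave 0 to 1 higher on knockdown, 3 to 9 lower on induction and 2 to 8 higher on induction in pEx5. The authors' deposited table gave 7 higher and 0 lower on induction in both lines, and with exon-event reads 4 were lower, and 4 higher in pEx5. Exon-event reads alone turned Tyms round, to 1.18 on knockdown, -1.05 on induction and 0.13 over control; the cause was not tested. Member events called on knockdown were 22 at 5 points and 4 at 15 points (exons lower 3 at 15 points), and 7 to 12 (exons 4 to 9) without single libraries. On induction 7 events were called at 5 points, 1 at 15 points, 5 with 1 read added, 6 with precision weights and 6 with weights at mean PSI 1 to 99, a range chosen after seeing the data. Without single libraries that count was 0 to 3: 0 without mEx5 knockdown B and 1 without 7 others. Deviations of same-letter libraries correlated at -0.13 to 0.16, over 0.1 in 2 of 15 pairs, so little shift was shared by letter. The main fits did not pair libraries by letter. Whether libraries of a letter were prepared together cannot be read from this. With the replicate block 35 members were lower and 0 higher on knockdown, 14 higher and 8 lower on induction, and 38 lower than control, and 12 member events were called on knockdown and 3 on induction. With 2 libraries a group the unweighted event test has little power at its threshold and well above it, so an event not called is not shown to be unchanged.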
